A study of Mus musculus with 18 samples.

Results

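Satellite cells are the resident stem cells of skeletal muscle, and the messenger RNAs by which they are usually recognised were followed here in the nuclear and cytoplasmic RNA of mouse myofibers. The 8 genes were Pax7, Cdh15, Calcr, Chodl, Sdc4, Megf10, Itga7 and Vcam1. Their members on the array were found by the gene name printed for each probe, which gave 10 probes out of 55681 probes with a name, and 8 of 34592 gene names. Chodl and Vcam1 had 2 probes each and the other 6 genes had 1. No measured value took part in that choice.

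RNA came from 3 hindlimb muscles of 3-month-old CD1 female mice, the tibialis anterior (TA), the soleus and the extensor digitorum longus (EDL), with no genetic change and no treatment of the animals. The EDL and TA are mostly fast muscles and the soleus is rich in slow fibers. Muscles were digested with collagenase, intact myofibers were picked by hand, and pools of 5 to 10 fibers were lysed with a detergent and spun, so that the pellet gave the nuclei and the supernatant the cytoplasm. Each of the 6 groups (nuclei or cytoplasm of EDL, soleus or TA) had 3 samples, 18 in all, each hybridised in 1 colour to 1 Agilent array. A sample is a pool of fibers from 1 or 2 mice. Same-numbered EDL and soleus samples came from the same mice in both fractions, whereas the TA samples matched only in part and TA cytoplasm 1 and 2 shared a mouse. The samples are fractions of fibers and none is a preparation of satellite cells, and in such bulk RNA fewer cells of a type and less RNA per cell cannot be told apart.

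Satellite cells lie between the membrane of the muscle fiber and its basal lamina, and they are known to stay attached to fibers that are released by collagenase. At rest they keep the paired-box transcription factor Pax7 on and hold themselves out of the cell cycle with the help of Notch signalling and the calcitonin receptor. After injury they divide as myoblasts, turn on Myod1 and then Myog, and fuse. Most of the other markers are surface proteins that anchor the cell or receive signals. Cdh15 is M-cadherin, Itga7 the alpha chain of a laminin receptor, Vcam1 an adhesion molecule that binds integrins, Sdc4 a heparan sulfate proteoglycan that assists growth factor receptors, Megf10 an EGF-repeat receptor and Chodl a membrane protein with a lectin domain. Several are not restricted to satellite cells. Vcam1 is also known from endothelium, Itga7 from mature muscle fibers, and Sdc4 from many cell types.

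The probes are 60 bases long, and the first 30 bases of 7 of them are given here to show which stretch was read. They are written 5′ to 3′ as in the scanner files. Of the 10 probes, 0 shared 30 bases with a probe of another name.
Pax7: ccttgaccccaacaggttttcccaactgtc
Cdh15: ggcccatccttggctccatggcagataaac
Itga7: ctctggccttactgtgctgtaccagtccag
Chodl A_66_P125847: agctgaacagaagttaatagagagcatgct
Chodl A_51_P403961: caaagaaatccttgcatagggaaaacattt
Vcam1 A_52_P520495: aaccaagagtttggaagtaacctttactcc
Vcam1 A_51_P210956: tatatttttataggcaaatggtaaagaggt

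On the mm9 build that the files name, the Pax7 probe lies at chr4:139294364-139294423 on the minus strand, the Cdh15 probe at chr8:125391031-125391090 on the plus strand and the Itga7 probe at chr10:128395274-128395333 on the plus strand. Chodl A_66_P125847 lies at chr16:78941612-78941671 and Chodl A_51_P403961 at chr16:78951190-78951249, both on the plus strand, so the first lies 9578 bases upstream of the other. Vcam1 A_52_P520495 lies at chr3:115828953-115829012 and Vcam1 A_51_P210956 at chr3:115813216-115813275, both on the minus strand, so again the first lies upstream, by 15737 bases. The Calcr probe is at chr6:3635940-3635999 and the Sdc4 probe at chr2:164251211-164251270, both on the minus strand. Whether these stretches are coding was not analysed here, for want of an annotation of that build.

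Levels are given as log2 of the quantile-normalized intensity, and a spot was called detected where the scanner software found it well above background. Over all probes, the share detected on 3 of 3 arrays of a group was between 53.7% and 62.8%. The first principal component, with 53.4% of the variance, separated nuclei from cytoplasm, and on it soleus cytoplasm 2 stood at -5.86 while the other cytoplasm arrays lay between -151 and -78.9. The median SD between replicates was 0.11 to 0.15 in nuclei and 0.25 to 0.40 in cytoplasm. The arrays lay on 4 slides. Slide 1 held all EDL and soleus cytoplasm and TA cytoplasm 1, slide 2 all EDL and soleus nuclei, slide 3 TA cytoplasm 3, and slide 4 the TA nuclei and TA cytoplasm 2. In EDL and soleus each fraction thus lay on a slide of its own, and the effects of slide and fraction cannot be told apart. All 12 myofiber markers on a list of Acta1, Ckm, Ttn, the myosin heavy chains and others were detected on all arrays of each group.

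The 8 markers ranged from undetected to bright. Cdh15, Sdc4, Itga7 and Vcam1 A_51_P210956 were detected on 18 of 18 arrays. Chodl A_66_P125847 and Megf10 were each detected on 16 arrays, all 9 nuclear and 7 cytoplasmic, and Vcam1 A_52_P520495 on 11, of which 9 were nuclear. Pax7 was detected on 8 arrays, Chodl A_51_P403961 on 3 and Calcr on 0. Of the 10 probes, 9 were detected on all 3 arrays of soleus nuclei, 8 in TA nuclei, 7 in EDL nuclei, 6 in soleus cytoplasm, and 5 in EDL and in TA cytoplasm. The most complete set was thus in soleus nuclei, where only Calcr was missing.

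**Figure D1:**
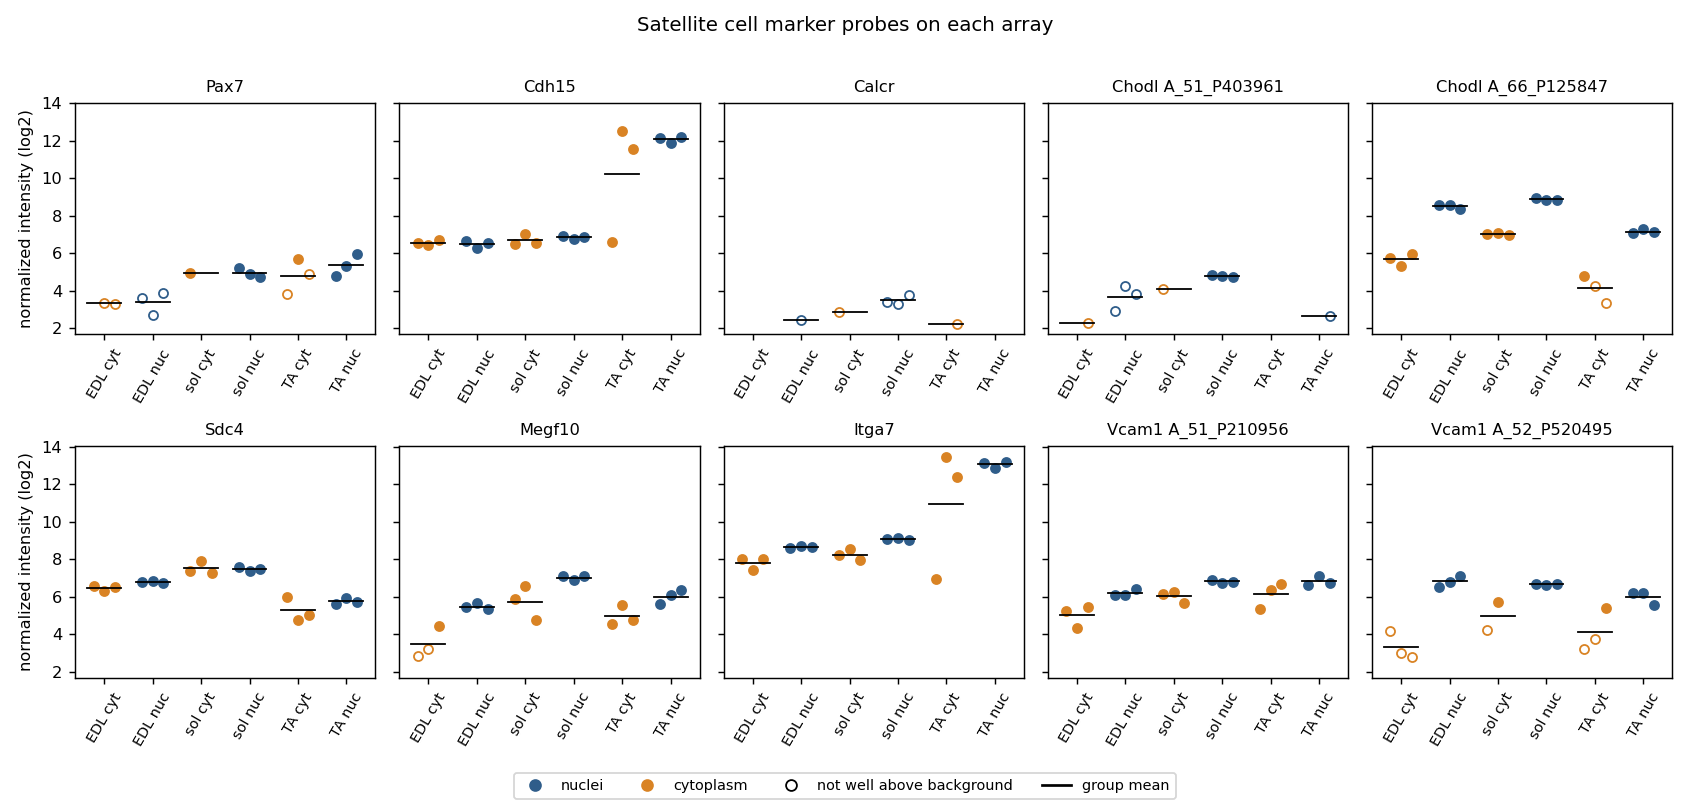
Log2 normalized intensity (vertical axis) of the 10 probes of the 8 markers on each of the 18 arrays, by muscle and fraction, with filled points for spots well above background, open points for other spots that have a value, and a line at the group mean. Chodl A_66_P125847 stands higher in nuclei in every muscle, whereas Cdh15 and Itga7 rise above 11 on TA arrays other than TA cytoplasm 1.

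Nuclei held more of 4 of the probes than cytoplasm, and no marker was called lower in nuclei in any muscle. Called means an adjusted p under 0.05 in limma's moderated test over all probes with at least 2 values in each group compared. In EDL, 4 of 8 tested member probes were called, all higher in nuclei, where 46.6% of all tested probes were called in either direction, 20% as higher and 26.5% as lower. In soleus, 3 of 7 were called higher, against 40.3% of all probes in either direction, 18.7% higher and 21.7% lower. In TA, 2 of 8 were called higher, against 52.7%, 19.2% and 33.5%. Over the 3 muscles, 4 of 7 were called higher, against 69.8%, 31.2% and 38.6%. The nuclear and cytoplasmic arrays did not overlap for 6 of 8 tested member probes in EDL, 5 of 7 in soleus and 3 of 8 in TA, beside 66.3%, 56.5% and 60.2% of all probes. A difference between the muscles in the nuclear excess was called for 0 of 7 member probes by limma, against 1.57% of all, and 1 of the 7 had an unadjusted p under 0.05. The median difference of the tested member probes reached 1.01 in EDL, 0.83 in soleus and 1.44 in TA, beside medians of all tested probes of -0.05, -0.01 and -0.22. Counted by gene, the medians came to 0.84 for EDL, 0.81 for soleus and 1.05 for TA. The TA median of the probes lay between Megf10 (1.05) and Cdh15 (1.84), with Itga7 at 2.12. The Cdh15 and Itga7 differences take in TA cytoplasm 1, low for both and on another slide than the TA nuclei. On slide 4 alone, with 1 cytoplasm array, both were negative, as given below. With so many genes called in either direction, these counts are a description of the markers and set none of them apart.

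**Figure D2:**
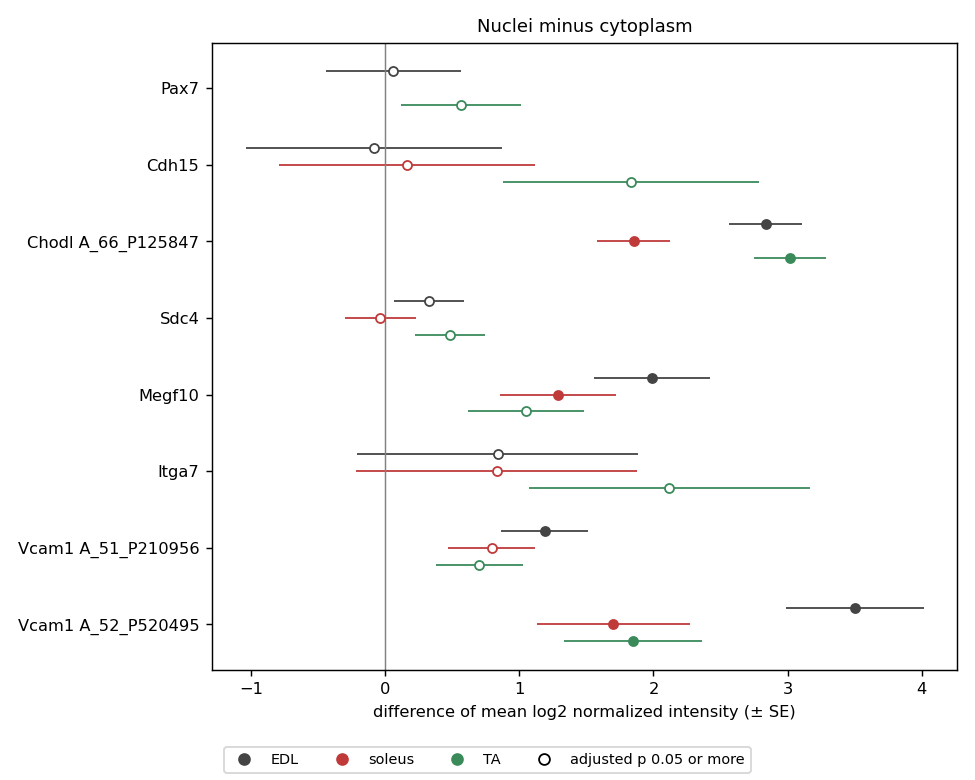
Difference of the mean log2 normalized intensity between nuclei and cytoplasm (horizontal axis) with its standard error for the 8 member probes tested in at least 1 muscle, with filled points where the adjusted p was under 0.05. Chodl A_66_P125847 and Vcam1 A_52_P520495 are called in all 3 muscles, with differences from 1.70 to 3.50, and the wide bars of Cdh15 and Itga7 come with the spread of their TA cytoplasm arrays.

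Pax7, the transcription factor that defines the satellite cell, was not detected on any EDL array. In soleus nuclei it was detected on all 3 arrays, at 5.23, 4.88 and 4.71. In TA nuclei it was also detected on all 3, at 4.79, 5.32 and 5.98. In cytoplasm it was detected only in soleus cytoplasm 1, at 4.93, and in TA cytoplasm 2, at 5.68. The undetected spots of EDL nuclei read 3.59, 2.68 and 3.88, below every detected array. Nuclei and cytoplasm differed by 0.06 (SE 0.50, adjusted p = 0.935) in EDL, where neither side was detected, and by 0.56 (SE 0.45, adjusted p = 0.311) in TA, where the groups overlapped. On slide 4 alone, with 1 cytoplasm array, the TA difference was -0.32. Soleus had a usable value on only 1 of its cytoplasm arrays and was not tested with them. With no filter on positive signal, Pax7 was called higher in nuclei in soleus (1.73, SE 0.61, adjusted p = 0.0354) and over the 3 muscles (1.10, SE 0.35, adjusted p = 0.013), and the soleus value then included 2 cytoplasm spots without a significant signal. Pax7 was at least 2.47-fold brighter in soleus nuclei than in EDL nuclei. This bound takes, on each EDL array, the higher of its reading and the lowest detected signal, and was not itself tested. The measured difference was not called (1.55, SE 0.45, adjusted p = 0.152). It was called when the fit held those 6 nuclear arrays alone (adjusted p = 0.0346).

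Calcr, the calcitonin receptor that keeps satellite cells at rest, was not well above background on any of the 18 arrays. Its spot had a positive and significant signal on all 3 arrays of soleus nuclei, at 3.38, 3.30 and 3.76, and on 3 other arrays in all, 1 each of EDL nuclei, soleus cytoplasm and TA cytoplasm, at 2.45, 2.86 and 2.23. No comparison of Calcr could be tested on such spots. With no filter on positive signal, soleus nuclei were called higher than soleus cytoplasm (1.30, SE 0.17, adjusted p = 5.05e-05) and EDL nuclei (1.28, SE 0.17, adjusted p = 0.000869), the nuclear excess over the 3 muscles was 0.47 (SE 0.10, adjusted p = 0.000849), and the muscles differed in it (adjusted p = 0.0163). All of these set spots that were not well above background against each other, and in EDL (0.19) and TA (-0.09) the fractions were not called apart. Of the genes that act with it, Ramp1, a subunit of related receptors, was detected on 18 arrays and differed between fractions by -0.24 over the 3 muscles (adjusted p = 0.223). Calca, the gene of its ligand calcitonin and of CGRP, was lower in nuclei over the 3 muscles (difference -1.59, adjusted p = 0.00102), and was detected on 9 arrays.

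Chodl gave the clearest nuclear excess, and its probes did not read alike. The upstream probe A_66_P125847 read 8.57, 8.55 and 8.38 in EDL nuclei against 5.74, 5.31 and 5.94 in EDL cytoplasm. In soleus it read 8.97, 8.81 and 8.84 in nuclei against 7.02, 7.06 and 6.97 in cytoplasm. In TA it read 7.05, 7.26 and 7.15 in nuclei against 4.78, 4.27 and 3.36 in cytoplasm, of which only the first was well above background. The groups were apart in every muscle. The differences were 2.84 (SE 0.27, adjusted p = 2.26e-06, 7.14-fold) in EDL, 1.85 (SE 0.27, adjusted p = 0.000111, 3.61-fold) in soleus and 3.02 (SE 0.27, adjusted p = 1.77e-06) in TA, where 2 of the 3 cytoplasm spots were not well above background. With only signal well above background, EDL (2.93, adjusted p = 7.45e-08) and soleus (2.05, adjusted p = 2.13e-06) were called and TA could not be tested. On slide 4 alone, which holds TA nuclei and 1 TA cytoplasm array together, Chodl was called too (adjusted p = 0.00496). In that fit, as in the others on slide 4, the lone cytoplasm array is assumed to vary like the TA nuclei, and for Chodl its spot was not well above background. Leaving out any 1 array kept the value between 2.67 and 2.99 in EDL, between 1.80 and 1.88 in soleus and between 2.64 and 3.36 in TA. A test of whether the 3 muscles differed in this excess gave an adjusted p of 0.191, and of 0.0381 without TA cytoplasm 1.

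The downstream Chodl probe A_51_P403961 was detected only in soleus nuclei, at 4.81, 4.76 and 4.71. Its EDL nuclei spots read 2.93, 4.24 and 3.83 and were not well above background. In soleus cytoplasm 1 spot had a usable value, 4.10, and with the filter on positive signal this probe could be tested between fractions in no muscle. Without that filter it was called higher in nuclei in EDL (1.64, SE 0.41, adjusted p = 0.00486), in soleus (2.06, SE 0.41, adjusted p = 0.00122) and over the 3 muscles (1.34, SE 0.24, adjusted p = 0.000163), against cytoplasm spots none of which was well above background. In TA it was not called (0.33, adjusted p = 0.549). No probe's level can be set against another's, so only the direction of each can be read, and in soleus the nuclear values of both probes lay above every usable cytoplasmic value.

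Megf10, the EGF-repeat receptor known from quiescent satellite cells, was higher in nuclei of EDL and soleus. EDL nuclei read 5.42, 5.64 and 5.33 against 2.83, 3.18 and 4.42 in cytoplasm, where only the last was well above background. Soleus nuclei read 7.07, 6.86 and 7.10 against 5.86, 6.54 and 4.76. TA nuclei read 5.62, 6.06 and 6.33 against 4.56, 5.56 and 4.76. The nuclear arrays lay above the cytoplasmic arrays of their muscle in each case. The difference was 1.99 (SE 0.43, adjusted p = 0.00169) in EDL, 1.29 (SE 0.43, adjusted p = 0.0272) in soleus and 1.05 (SE 0.43, adjusted p = 0.0535) in TA. The soleus call was lost without soleus cytoplasm 3 (0.82, adjusted p = 0.151), without soleus nuclei 1 (adjusted p = 0.0682) and without soleus nuclei 3 (adjusted p = 0.0705). With only signal well above background, the soleus (1.55, adjusted p = 0.00535) and TA differences (1.01, adjusted p = 0.038) were called and EDL could not be tested. In TA, Megf10 became called without TA cytoplasm 2 (1.35, adjusted p = 0.0289) and without any 1 of EDL cytoplasm 1, EDL cytoplasm 3, soleus cytoplasm 2 and soleus cytoplasm 3. TA cytoplasm 2, the only cytoplasm array on the slide of the TA nuclei, read 5.56 and lay closest to them (5.62, 6.06 and 6.33).

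Vcam1, the adhesion molecule, was higher in nuclei at both of its probes. The downstream probe A_51_P210956 read 6.08, 6.10 and 6.38 in EDL nuclei against 5.23, 4.33 and 5.44 in cytoplasm. In soleus it read 6.88, 6.75 and 6.80 in nuclei against 6.14, 6.26 and 5.64 in cytoplasm. In TA the nuclear values 6.62, 7.10 and 6.75 overlapped the cytoplasmic values 5.36, 6.33 and 6.67. The difference was 1.19 (SE 0.32, adjusted p = 0.00736) in EDL, 0.79 (SE 0.32, adjusted p = 0.0618) in soleus and 0.70 (SE 0.32, adjusted p = 0.0803) in TA. Over the 3 muscles it was 0.89 (SE 0.19, adjusted p = 0.000539). The soleus difference was called without EDL cytoplasm 2 (adjusted p = 0.038), TA cytoplasm 1 (adjusted p = 0.0223) or TA cytoplasm 3 (adjusted p = 0.0447), and the TA difference without TA cytoplasm 3 (0.98, adjusted p = 0.0229).

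The upstream Vcam1 probe A_52_P520495 read 6.50, 6.80 and 7.12 in EDL nuclei, and 4.16, 3.01 and 2.76 in EDL cytoplasm, where no spot was well above background. The difference in EDL was 3.50 (SE 0.51, adjusted p = 9.93e-05), taken against those undetected readings. As a bound, which was not itself tested, EDL nuclei were at least 9.49-fold brighter. In soleus the nuclei read 6.69, 6.63 and 6.65, and the 2 usable cytoplasm spots 4.21 and 5.70. In TA the nuclei read 6.17, 6.18 and 5.57 against 3.21, 3.76 and 5.40 in cytoplasm. Nuclei lay above cytoplasm in all 3 muscles, by 1.70 (SE 0.57, adjusted p = 0.0292) in soleus and 1.85 (SE 0.51, adjusted p = 0.00761) in TA. The soleus call was lost without any 1 of its nuclear arrays (adjusted p = 0.0637, 0.0595 and 0.0612).

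The upstream spot was well above background on 0 of 3 cytoplasm arrays in EDL, 1 in soleus and 1 in TA, so the size of its nuclear excess rests mostly on readings not well above background and is not set against that of the downstream probe. With only signal well above background it could be tested in no muscle. The relation of the probes to exons and introns was not analysed here. Integrin alpha 4, which with beta 1 forms the receptor of Vcam1, did not pass the test (Itga4 -0.25 over the 3 muscles, adjusted p = 0.205), while Itgb1 rose in nuclei by 0.70 (SE 0.13, adjusted p = 0.000145).

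Sdc4, the heparan sulfate proteoglycan, was not called between fractions in any muscle. EDL nuclei read 6.77, 6.83 and 6.75 against 6.58, 6.29 and 6.50 in cytoplasm, and soleus nuclei read 7.56, 7.39 and 7.46 against 7.38, 7.90 and 7.24. TA nuclei read 5.61, 5.91 and 5.71 against 6.00, 4.77 and 5.01. The EDL groups did not overlap and the soleus and TA groups did. The difference was 0.32 (SE 0.26, adjusted p = 0.327) in EDL, -0.04 (SE 0.26, adjusted p = 0.924) in soleus and 0.48 (SE 0.26, adjusted p = 0.134) in TA. Without TA cytoplasm 1, which stood highest of the TA arrays, the TA difference was 0.86 (adjusted p = 0.00264), and on slide 4 alone, with 1 cytoplasm array, it was 0.97 (adjusted p = 0.0183).

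The levels of Cdh15 and Itga7 were split by slide. M-cadherin read between 6.26 and 7.00 on the 13 arrays of slides 1 and 2, and between 11.55 and 12.53 on the 5 arrays of slides 3 and 4. In EDL, the Cdh15 nuclei read 6.63, 6.26 and 6.53 and the cytoplasm 6.54, 6.46 and 6.69. In soleus the nuclei read 6.89, 6.76 and 6.88 and the cytoplasm 6.49, 7.00 and 6.56. In TA the nuclei read 12.12, 11.88 and 12.19, and the cytoplasm 6.60 on slide 1, 12.53 on slide 4 and 11.55 on slide 3. The TA cytoplasm arrays therefore differed among themselves by more than any group of EDL or soleus, and the one on the EDL and soleus slide read like EDL and soleus.

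Itga7 showed the same split. It read between 6.96 and 9.12 on slides 1 and 2 and between 12.39 and 13.47 on slides 3 and 4. EDL nuclei read 8.61, 8.69 and 8.66 against 8.03, 7.42 and 7.99 in cytoplasm, and soleus nuclei read 9.06, 9.12 and 9.02 against 8.24, 8.53 and 7.95, apart in both muscles. TA nuclei read 13.15, 12.85 and 13.17, and TA cytoplasm 6.96, 13.47 and 12.39. Beside these values, TA differs from EDL and soleus, and slides 3 and 4 with their scan day differ from slides 1 and 2. Only TA cytoplasm 1 separates these, and it had the low value of its slide for both genes. What lies behind the split was not tested.

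**Figure D3:**
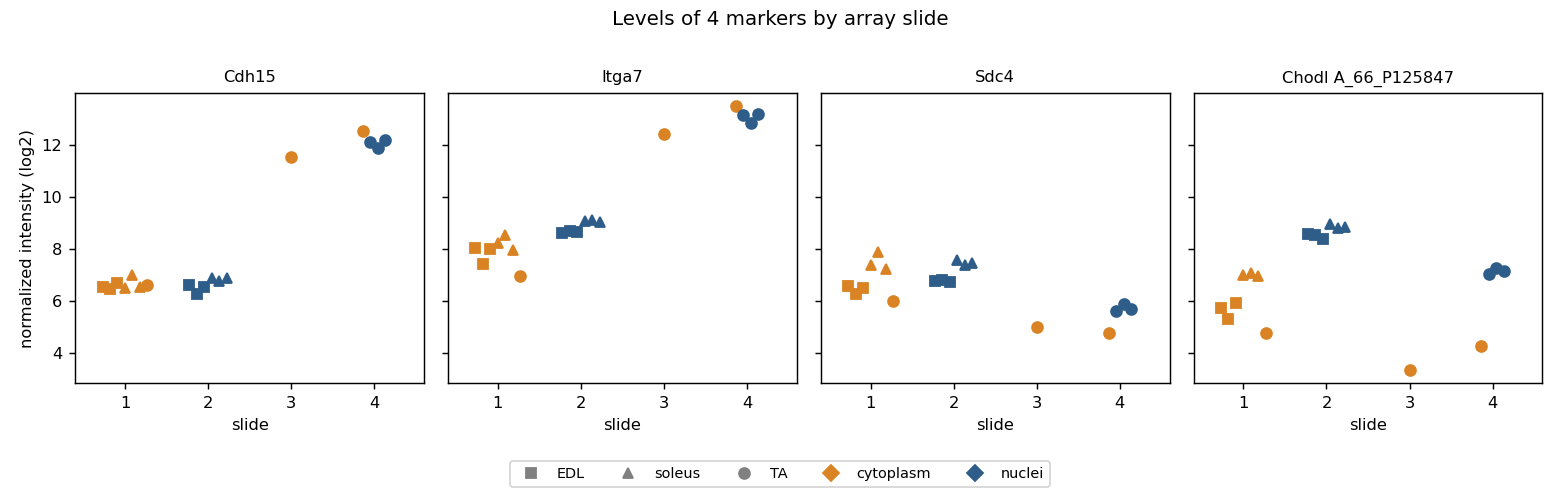
Log2 normalized intensity (vertical axis) of Cdh15, Itga7, Sdc4 and Chodl A_66_P125847 on the 18 arrays, placed by the slide each array lay on, with shape for the muscle and colour for the fraction. Cdh15 stands between 11.55 and 12.53 on slides 3 and 4 and at 6.60 in TA cytoplasm 1 on slide 1, whereas Chodl is higher in nuclei than in cytoplasm on slide 4, which holds both.

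The spread within TA cytoplasm entered the error of both genes in every comparison, because the fit shares it between groups. Nuclei minus cytoplasm was -0.09 (SE 0.95, adjusted p = 0.95) in EDL, 0.16 (SE 0.95, adjusted p = 0.907) in soleus and 1.84 (SE 0.95, adjusted p = 0.118) in TA for Cdh15. For Itga7 it was 0.84 (SE 1.05, adjusted p = 0.532) in EDL, 0.83 (SE 1.05, adjusted p = 0.552) in soleus and 2.12 (SE 1.05, adjusted p = 0.102) in TA. Without TA cytoplasm 1, Itga7 was called higher in nuclei of EDL (0.84, adjusted p = 0.0116), of soleus (0.84, adjusted p = 0.0142) and over the 3 muscles (0.60, adjusted p = 0.00245). With only the 12 EDL and soleus arrays in the fit, a setting chosen after seeing the data, the Itga7 adjusted p was 0.0055 in EDL and 0.00699 in soleus. With the replicate number as a block, Itga7 was called over the 3 muscles (1.26, adjusted p = 0.0456). On slide 4 alone, against a single cytoplasm array, the TA differences turned, to -0.47 for Cdh15 and -0.41 for Itga7, and were not called (adjusted p = 0.113 and 0.164). Without TA cytoplasm 2 the TA difference was called at Cdh15 (3.00, adjusted p = 0.0124) and Itga7 (3.38, adjusted p = 0.0107), and without TA cytoplasm 3 at Itga7 (2.84, adjusted p = 0.0468).

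A split between these 5 arrays and the other 13 was measured over all 35528 probes with a value on every array, a comparison added after the values of Cdh15 and Itga7 were seen. Of these, 6.23% stood higher on slides 3 and 4 without overlap, and 3.32% lower. The gap was over 3 log2 units for 30 probes, or 0.0844%, all of them higher on slides 3 and 4. Cdh15 had the third largest gap, 4.55, after Raly (6.32) and Gchfr (5.35), and Itga7 ranked 15, at 3.27. Next after Cdh15 came S100a4 (4.29) and Itprip (4.23). Among the 30 probes were also Rrm2 (3.22), Cdc20 (3.22) and Ube2c (3.13), which act in DNA synthesis and mitosis. Others were Chrna1, the alpha subunit of the muscle acetylcholine receptor, and the syndecan Sdc1. These were picked by function and not by rank, and the share of such genes among all probes was not measured. Sdc4 went the other way, reading 4.77 to 5.91 on slides 3 and 4 and 6.00 to 7.90 on the rest. The other 3 member probes with 18 values, of Chodl, Megf10 and Vcam1, overlapped between the slides.

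On the list of other genes known from satellite cells, 2 of 25 genes with 18 values were higher on slides 3 and 4 without overlap and 0 lower, a share near the 6.23% and 3.32% of all probes. They were Myog, the factor of differentiating myoblasts, at 7.86 to 9.31 against 5.79 to 7.43, and the proliferation marker Mki67, at 8.42 to 10.0 against 5.84 to 7.42. TA cytoplasm 1 read 6.23 for Myog and 6.28 for Mki67, within the range of the slide 1 and 2 arrays. The rest of that list overlapped, among them Myod1 (9.49 to 11.12 against 8.95 to 11.76) and Ccnd1 (7.68 to 8.45 against 6.46 to 8.52). Of 9 smooth muscle and pericyte markers, 2 were higher without overlap, Acta2 at 13.12 to 14.21 against 8.80 to 10.61 and Cspg4 at 8.05 to 8.43 against 6.95 to 7.43, and the other 7 overlapped. Of the 12 myofiber markers, Atp2a1 alone was apart, and lower, at 13.08 to 13.98 against 14.02 to 15.03. Of 17 relatives of the markers with 18 values, 4 were higher without overlap, namely Cdh2, Sdc1, Sdc2 and Itga5, and 0 were lower. None of the endothelial, fibroblast, Schwann or macrophage markers with 18 values differed without overlap in either direction. The part of any of these in the Cdh15 and Itga7 values was not tested.

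Soleus and EDL could be compared on the same slide within each fraction. In the fit of all arrays, 2 markers were called higher in soleus cytoplasm. In cytoplasm, 2 of 7 tested probes were called, both higher in soleus, where 1.42% of all tested probes were called, 0.853% as higher and 0.57% as lower. The arrays did not overlap for 5 of the 7, against 16.1% of all. Megf10 was higher in soleus cytoplasm by 2.25 (SE 0.43, adjusted p = 0.0166) and Chodl A_66_P125847 by 1.36 (SE 0.27, adjusted p = 0.0206). Sdc4 was 1.05 higher (SE 0.26, adjusted p = 0.0638) and passed without TA cytoplasm 1 (adjusted p = 0.00534) or TA cytoplasm 2 (adjusted p = 0.0436). Only 1 of the 3 EDL cytoplasm spots of Megf10 was well above background, and with only such signal Megf10 could not be tested, while Chodl was called (1.27, adjusted p = 0.00185). The Megf10 call did not hold with the replicate number as a block (adjusted p = 0.0505), which in EDL and soleus stands for the mice. Nor did it hold without EDL cytoplasm 1 (adjusted p = 0.059), EDL cytoplasm 2 (adjusted p = 0.0749) or soleus cytoplasm 2 (adjusted p = 0.0691). The Chodl call did not hold without EDL cytoplasm 2 (adjusted p = 0.0939) or soleus cytoplasm 2 (adjusted p = 0.0636).

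In nuclei, 0 of 9 tested probes were called by limma between soleus and EDL, against 1.56% of all tested probes, 0.978% higher and 0.579% lower, and 4 of the 9 had an unadjusted p under 0.05. The largest differences were those of Pax7 (1.55, SE 0.45), Megf10 (1.55, SE 0.43, adjusted p = 0.111) and Chodl A_51_P403961 (1.09, SE 0.34, adjusted p = 0.291). Soleus and EDL nuclei did not overlap for 8 of the 9 probes, these 3 included, against 39.1% of all probes. Megf10 was called without soleus cytoplasm 3 (adjusted p = 0.0497). With only the 6 arrays compared in the fit, 6 probes were called, all higher in soleus, among them Megf10 (adjusted p = 0.0016), Sdc4 (0.69, adjusted p = 0.00543), Itga7 (0.42, adjusted p = 0.0179) and Vcam1 A_51_P210956 (0.62, adjusted p = 0.0189). In that fit 14.2% of all probes were called. TA was not set against the other muscles by a test, since its arrays lay mostly on other slides.

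**Figure D4:**
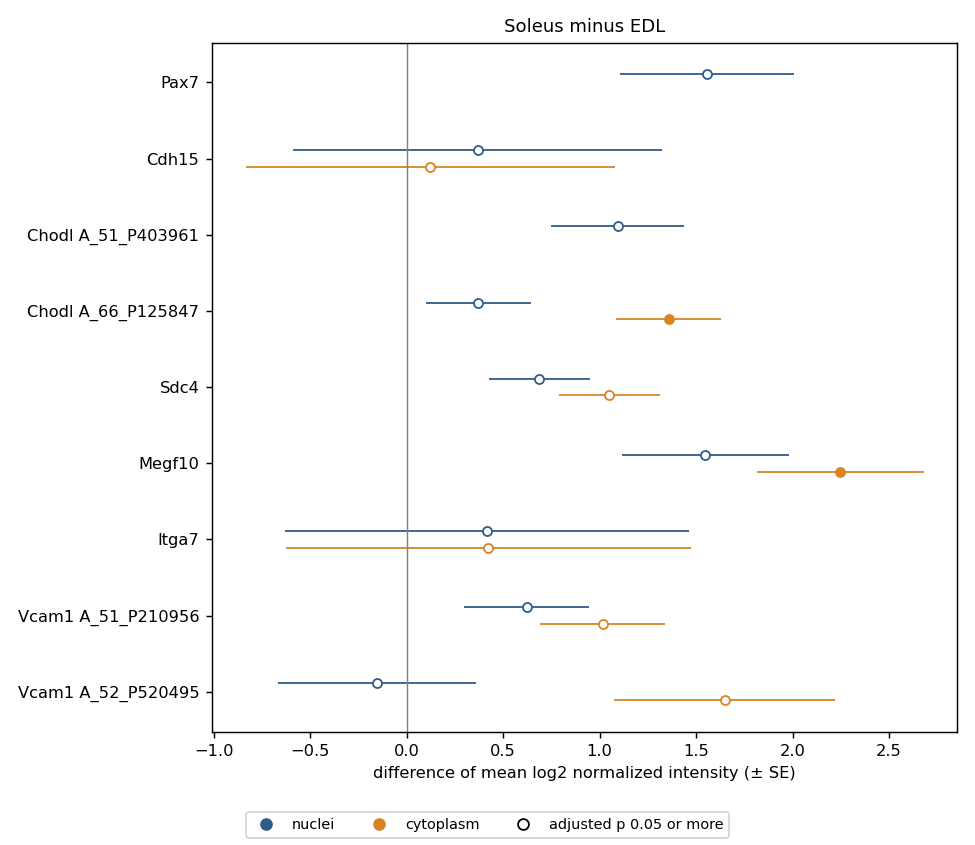
Difference of the mean log2 normalized intensity between soleus and EDL (horizontal axis) with its standard error, in nuclei and in cytoplasm, with filled points where the adjusted p was under 0.05. Megf10 (2.25) and Chodl A_66_P125847 (1.36) are called in cytoplasm, and no probe is called in nuclei.

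The order of the 6 groups differed from marker to marker. Chodl A_66_P125847 was highest in soleus nuclei (8.87 ± 0.08, SD, n = 3), followed by EDL nuclei (8.50 ± 0.11), TA nuclei (7.15 ± 0.11), soleus cytoplasm (7.02 ± 0.05), EDL cytoplasm (5.66 ± 0.32) and TA cytoplasm (4.13 ± 0.72). In that order the TA nuclei and soleus cytoplasm overlapped, and each other neighbouring pair was apart. Megf10 ran from soleus nuclei (7.01 ± 0.13, SD, n = 3) through TA nuclei (6.00 ± 0.36), soleus cytoplasm (5.72 ± 0.90), EDL nuclei (5.46 ± 0.16) and TA cytoplasm (4.96 ± 0.53) to EDL cytoplasm (3.48 ± 0.83), and only the soleus nuclei and the EDL cytoplasm did not overlap their neighbour. Sdc4 was lowest in TA cytoplasm (5.26 ± 0.65, SD, n = 3) and highest in soleus, where cytoplasm (7.51 ± 0.35) and nuclei (7.47 ± 0.09) overlapped.

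The genes whose levels were most like those of a marker were sought among probes of other genes with a symbol and 18 values. Pearson's r is a description over the 18 arrays, which share the fraction and slide structure. Cdh15 was most like Gchfr (0.99), Zyx (0.99) and Eno1 (0.99), and Itga7 like Hsp90ab1 (0.99), Cox6a1 (0.99) and Rps10 (0.99). Chodl A_66_P125847 was most like Pde3a (0.98), Ccdc66 (0.98) and Ier3 (0.98), and Sdc4 like Tmem14c (0.98), Cyba (0.97) and Mrpl55 (0.97). Among the genes most like Megf10 were Lrrcc1 (0.91) and Zcwpw2 (0.91). Vcam1 A_51_P210956 was most like Aoc2 (0.94) and Cul5 (0.94). Of the genes most like Cdh15 and Itga7, Gchfr, Zyx, Cox6a1 and Eno1 were among the 40 probes with the largest gap by slide. Such an overlap follows largely from the gaps of Cdh15 and Itga7 themselves and adds nothing to them.

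On the list of 26 other genes known from satellite cells, 25 were tested over the 3 muscles at the probe with the highest mean, and 9 were higher and 5 lower in nuclei, against 31.2% and 38.6% of all probes. The median difference was 0.26, beside -0.08 for all probes. The Notch targets Hes1 (1.48), Heyl (1.20) and Hey1 (1.02), which act downstream of the receptor that keeps satellite cells at rest, were higher in nuclei in each muscle, as was Spry1 (1.56), an inhibitor of receptor tyrosine kinase signalling. Pax3, the paralog of Pax7, was lower in nuclei in each muscle (over the 3 muscles -1.68, SE 0.20, adjusted p = 3e-06), and so was Myod1, the factor that commits cells to the muscle lineage (-1.61, SE 0.25, adjusted p = 4.19e-05).

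Of 22 genes tested over the 3 muscles that act as ligands or partners of the markers, 15 were higher and 4 lower in nuclei, beside 31.2% and 38.6% of all probes, with a median of 0.73. Jag2 (1.86) and Dll1 (1.36), both Notch ligands, were higher in nuclei in each muscle, as were the laminin chains Lama2 (1.50) and Lamb2 (1.00), which form part of the ligands of integrin alpha 7 beta 1, and Fn1 (1.04), fibronectin, which binds integrins and syndecans. Fn1 was also higher in soleus than in EDL, by 1.28 in nuclei (adjusted p = 0.0383). Ctnna1, which links cadherins to actin, did not pass the test between fractions (0.48, adjusted p = 0.17). It read 11.77 to 12.39 on slides 3 and 4 and 9.42 to 10.30 on the other arrays, in the direction of Cdh15. Of the 22 genes, only Ctnna1 was higher on slides 3 and 4 without overlap, beside 6.23% of all probes. Ramp1 alone was lower without overlap, at 7.79 to 7.90 against 9.04 to 10.00, beside 3.32% of all probes.

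Of the 17 relatives of the markers that were tested, 6 were higher and 4 lower in nuclei over the 3 muscles, beside 31.2% and 38.6% of all probes, with a median of 0.15. Icam1, an adhesion molecule of the family of Vcam1, was higher in nuclei in each muscle, by 2.20 over the 3 (SE 0.21, adjusted p = 3.04e-07), and so was the integrin Itga1 (1.50, SE 0.16, adjusted p = 1.02e-06). Among the integrins, Itga6, the alpha chain of another laminin receptor, was lower in nuclei over the 3 muscles (difference -0.52, adjusted p = 0.000659). The syndecan Sdc3, also known from satellite cells, was lower in nuclei (-0.46, adjusted p = 0.000972), whereas Sdc1 (0.94, adjusted p = 0.0657) and Sdc2 (0.40, adjusted p = 0.264) did not pass.

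Most markers of endothelial, Schwann and fibroblast cells, which can stay on a fiber, were higher in nuclei, as were Chodl, Megf10 and Vcam1, whereas macrophage markers were not. Over the 3 muscles, 31.2% of all tested probes were called higher in nuclei and 38.6% lower. Beside that, 12 of 12 endothelial markers were higher, such as Ptprb (1.60), Tie1 (1.50), Tek (1.32) and Vwf (1.20). So were 8 of 10 Schwann cell markers, such as Prx (2.71), Egr2 (1.94) and Mbp (1.83). Of the fibroblast and fibro-adipogenic markers, 7 of 10 were higher, such as Pdgfra (1.62) and Col1a2 (1.05). Of 9 smooth muscle and pericyte markers, 5 were higher, such as Pdgfrb (2.11) and Myh11 (1.68), and 2 lower, such as Cnn1 (-1.60). Of 10 macrophage markers, 0 were higher and 6 lower, such as C1qb (-0.79). Of the 12 myofiber markers, 10 were higher in nuclei as well, such as Ryr1 (1.91), Myh1 (1.30), Ttn (1.27) and Ckm (0.66).

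The summed normalized intensity of the 12 endothelial markers was 12730 to 13610 in EDL nuclei against 6771 to 7594 in EDL cytoplasm. It was 11630 to 12320 in soleus nuclei against 6469 to 12080 in soleus cytoplasm, and 14730 to 17810 in TA nuclei against 3363 to 6237 in TA cytoplasm. None of the 12 was undetected in any group. The summed intensity of the 12 myofiber markers was 240300 to 256400 in EDL nuclei against 170000 to 201600 in EDL cytoplasm. The part of these cell types and of the fiber's own RNA in the Chodl, Megf10 and Vcam1 differences was not tested.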

How the data were processed

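The files analysed are the scanner output of 18 single-colour Agilent arrays, deposited as intensity per spot (59305 spots) that the authors had extracted with Feature Extraction 10.7.3.1, whose processed signal is background-subtracted. The value table of the series was not used. Slides were read from the file headers. Spots without a positive and significant signal or with an outlier flag were set missing, as in the study's methods, and log2 signals were quantile-normalized and averaged by probe name. The 6 group means were fitted to all arrays with limma 3.58.1 (R 4.3.3), and p-values were Benjamini-Hochberg adjusted over all probes tested. The methods' own test, Significance Analysis of Microarrays, was run as an alternative. The fit was also run on simulated data with the same spread in all groups and no missing values. Such data cannot show how it handles the wider spread of cytoplasm or missing spots. A bound sets the bright group's mean against, on each array, the higher of the dim spot and the lowest detected signal. A list gene stands for its probe with the highest mean. List genes are named where called in one direction in EDL, soleus and TA, at most 6 a list by size, or where a sentence on a partner or on the slides needs them. Ramp1, Calca, Itga4, Ctnna1, Myog, Mki67, Ccnd1, Acta2, Cspg4, Atp2a1, Cdh2, Itga5, Itga6 and the syndecans were named outside the first part of that rule. One gene that the rule on likeness would name is not reported here. The members and lists were chosen with earlier results of these data known. Numbers pair EDL and soleus samples through their mice, per the labels. Deviations of same-numbered samples correlated between -0.11 and 0.13 over 21 pairs. Array number limits the precision.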

Additional observations from a re-analysis of the deposited data

How the results depend on the processing

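Counts of member probes called, over the settings tried, changed by more than 1.5 times as follows. With only signal well above background, 2 were called in EDL (4 in the main analysis) and 1 in TA (2). Over the 3 muscles 2 were called (4), and 1 between soleus and EDL cytoplasm (2). The shares of all tested probes called there were 48.4%, 54.8%, 71.6% and 1.72%. With each muscle's nuclear arrays averaged into 1 value, fewer member probes and a far smaller share of all probes were called in each muscle. The losses that follow are thus not particular to the markers. The soleus calls of Chodl A_66_P125847, Megf10 and Vcam1 A_52_P520495 were lost. Also lost were the EDL calls of Megf10 and Vcam1 A_51_P210956 and the TA call of Vcam1 A_52_P520495. Between soleus and EDL cytoplasm 0 were called, beside 0.0902% of all probes. With no scaling between arrays, 5 were called in soleus (3) and 7 over the 3 muscles. Between soleus and EDL, 3 were called in nuclei (0) and 1 in cytoplasm. The shares of all tested probes called there were 62.1%, 71.3%, 3.49% and 1.45%. With no filter on positive signal, 6 were called in soleus, 5 in TA and 8 over the 3 muscles. Called were also 2 for the interaction (0) and 1 between soleus and EDL nuclei. The shares of all tested probes called there were 38%, 46.6%, 62.1%, 2.37% and 1.72%. For soleus against EDL nuclei, scaling to the 75th percentile or normexp gave 1, beside 1.88% and 2.99% of all probes. The 6 compared arrays alone gave 6 in nuclei, beside 14.2% of all probes, and 0 in cytoplasm, beside 0.0616%. The fit of only EDL and soleus arrays, added after seeing the data, gave 5 in soleus, beside 44.6% of all probes. Detection by positive and significant signal gave 8 probes in TA cytoplasm (5). With the replicate number as a block, 1 was called between soleus and EDL cytoplasm, and the block changed no other call than those of Megf10 and Itga7 given above. Leaving out 1 array in turn gave 4 to 5 calls in EDL, 1 to 5 in soleus (1 without soleus nuclei 1 or 3, 5 without TA cytoplasm 1), 2 to 5 in TA, 3 to 6 over the 3 muscles, 0 to 1 for the interaction, 0 to 1 for soleus against EDL nuclei and 0 to 3 in cytoplasm. The causes of these changes were not tested.

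No called difference changed sign under any setting. Of 1269 alternative values of single probes, 19 changed sign, all of differences that were not called in the main analysis. For Pax7 in EDL these were -0.58 with scaling to the 75th percentile, -0.066 with the replicate block and -0.19 to 0.41 with 1 array left out (below 0 without EDL nuclei 1, -0.05, or 3), and in TA -0.32 on slide 4. For Cdh15 in EDL they were 0.38 with no scaling, 0.0063 with only signal well above background, 0.0053 with no filter on positive signal and -0.16 to 0.022 with 1 array left out (above 0 without EDL nuclei 2). For Cdh15 in TA it was -0.47 on slide 4, and between the cytoplasms of soleus and EDL -0.18 with no scaling and -0.036 to 0.22 with 1 array left out (below 0 without soleus cytoplasm 2). Itga7 in TA gave -0.41 on slide 4. For Sdc4 in soleus they were 1.15 with no scaling, which was called, 0.16 with only signal well above background and -0.17 to 0.16 with 1 array left out (above 0 without soleus cytoplasm 2 or soleus nuclei 2). For the upstream Vcam1 probe between soleus and EDL nuclei they were 0.16 with no scaling and -0.30 to 0.0060 with 1 array left out (above 0 without EDL nuclei 3). The methods' test called 5 member probes in EDL, 4 in soleus and 2 in TA, Itga7 among them in EDL and soleus. Of all probes it called 17792 of 39769 in EDL, 16976 of 39139 in soleus and 9274 of 39373 in TA. Scaling to the 75th percentile moved the median difference of all probes in EDL from -0.05 to -0.29, and no scaling moved it in soleus from -0.01 to 0.96 and raised the share of higher among called probes there from 46.3% to 92.3%.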
